A study of Homo sapiens with 2 samples.

Results

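The NUDT21 peaks of DNMT1 and 9 genes of DNA replication were examined in J-Gamma1 cells, a T-cell acute lymphoblastic leukemia line derived from Jurkat that lacks phospholipase C gamma 1. The genes were DNMT1, UHRF1, PCNA, MCM2, MCM3, MCM4, MCM5, MCM6, MCM7 and TOP2A, and their peaks were chosen by position, as the deposited peaks whose midpoint lay between the first and the last annotated base of 1 of these genes in GENCODE release 44. This rule gave 51 of the 20499 peaks. The genes themselves were named with the peak list known, so the number of peaks they hold is a description and was not tested.

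The study held 2 samples, 1 made with an antibody to NUDT21 and 1 input, both from the same line. Cells of both were irradiated with UV light of 254 nm at 400 mJ, with 2 irradiations, lysed for 15 min and digested with 40 U of RNase I for 5 min at 37 °C. Only the peak list of the antibody sample was used, so each value below comes from 1 library and has no replicate error. Exact Clopper-Pearson 95% intervals are given for shares of peaks. They cover counting error only, and peaks of 1 gene share its RNA and are not replicates.

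In eCLIP, UV light joins a protein to the RNA it touches, the protein is pulled down with an antibody, and the RNA fragments that come with it are sequenced. NUDT21 is the small subunit of cleavage factor Im, which recognises the letters UGUA upstream of poly(A) sites and takes part in the choice of the site at which a pre-mRNA is cut. DNMT1 copies DNA methylation to the new strand after replication, UHRF1 brings it to hemimethylated DNA, and PCNA is the sliding clamp of the replication fork. MCM2 to MCM7 form the ring of the replicative helicase, and TOP2A untangles the replicated chromosomes.

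Sequences from the peaks are shown first, because the letters and the exon edges they lie beside are what the results below turn on. All were read from hg38 on the strand of the gene, 5′ to 3′, as RNA, in lower case with UGUA in capitals, since the deposited peaks carry no strand. The 30 bases around the UGUA of the 7 DNMT1 peaks that held it and lay in or at the edge of an exon were as follows, beside the centre of the tallest DNMT1 peak, which held none.
DNMT1 peak 5, exon 12 donor, chr19:10163310-10163339: caacccaaagaucUGUAaguguuuaaaaug
DNMT1 peak 10, exon 25, chr19:10149849-10149878: uccucaaaaccgcUGUAucuagcaagguuu
DNMT1 peak 12, exon 28, chr19:10146386-10146415: aagaacggcauccUGUAccgaguuggugau
DNMT1 peak 14, exon 30, chr19:10142052-10142081: gagugcguccaggUGUAcuccaugggcggc
DNMT1 peak 15, exon 31 donor, chr19:10141079-10141108: aaagguacgucauUGUAugaguuucuuuuc
DNMT1 peak 21, exon 36, chr19:10137821-10137850: cagggaccacaucUGUAagguaauggcacc
DNMT1 peak 22, exon 37 donor, chr19:10137062-10137091: guggaagguggguccUGUAaguugugguuc
DNMT1 peak 6, exon 13, chr19:10162669-10162698: agauuucugaugaaaaagacgaggaugaaa

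For TOP2A and MCM3, the whole of 3 coding peaks is shown as examples without UGUA: the tallest peak of each gene and the MCM3 peak with the highest share of G and A. The 30 bases around the only UGUA in a TOP2A peak, in the 3′UTR, are added.
TOP2A peak 1, exon 2, chr17:40416798-40416876: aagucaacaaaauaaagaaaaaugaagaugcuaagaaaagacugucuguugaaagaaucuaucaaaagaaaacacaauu
MCM3 peak 1, exon 6 and its donor, chr6:52278703-52278798: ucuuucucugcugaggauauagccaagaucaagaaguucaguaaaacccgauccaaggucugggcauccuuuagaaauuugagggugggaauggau
MCM3 peak 2, exon 14 and its donor, chr6:52267833-52267904: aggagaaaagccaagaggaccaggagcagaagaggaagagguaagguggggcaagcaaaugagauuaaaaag
TOP2A peak 10, 3′UTR, chr17:40389225-40389254: aguucuucugaacUGUAgaaauagcuaucu

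Of the 10 genes, 6 held a peak (60.0%, 26.2 to 87.8), against 33.6% of the 19922 protein-coding genes. DNMT1 held 24 peaks, TOP2A 12, UHRF1 6, MCM4 4, MCM3 3 and MCM5 2. PCNA, MCM2, MCM6 and MCM7 held none. The same 6 genes held a peak centred in an exon of the MANE Select transcript, the reference transcript of the gene, against 20% of protein-coding genes. The list gives no expression level, so a gene with few transcripts and a gene whose transcripts were not bound cannot be told apart. PCNA also has 3 annotated pseudogenes, none with a peak, and how reads with several matches were placed was not given in the sources used here.

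**Figure D1:**
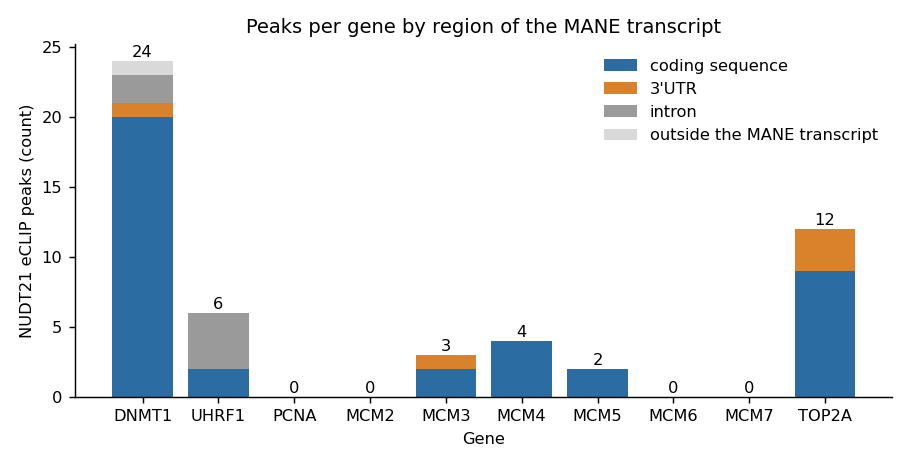
Bars give the number of NUDT21 eCLIP peaks (count) in each of the 10 genes of 1 library, divided by where the peak centre falls on the MANE Select transcript. DNMT1 with 24 and TOP2A with 12 hold 36 of the 51 peaks, most of them in coding sequence, and 4 genes hold none.

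Most of the peaks lay in coding exons. The centre of 39 of the 51 peaks (76.5%, 62.5 to 87.2) fell in MANE coding sequence, against 31.9% (31.2 to 32.6) of the 18667 peaks in other protein-coding genes. Only 6 (11.8%, 4.44 to 23.9) fell in an intron, against 44.1%, and 5 (9.80%, 3.26 to 21.4) in a 3′UTR, against 17.4%. DNMT1 had 20 coding peaks of 24, and the other members together had 19 of 27 (70.4%, 49.8 to 86.2).

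This placement depends on which transcripts are read. When a 3′UTR of any annotated transcript took precedence, and a 5′UTR came next, the coding share was 29.4%. In that order 19 coding peaks of DNMT1 and all 4 of MCM4 counted as 3′UTR, and MCM5 peak 1 as 5′UTR. The 3′UTRs in question came from 8 DNMT1 and 3 MCM4 transcripts, all annotated as targets of nonsense-mediated decay, in which the reading frame ends early and exons that code in the reference transcript lie past the stop codon. With coding sequence of any transcript in precedence the share was again 76.5%.

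The peaks were also tall. Peak heights, the Score column, came in whole multiples of 0.2277, called steps here, and 46 of the 51 peaks (90.2%, 78.6 to 96.7) reached 5 steps, against 45.2% of the 18718 peaks in protein-coding genes. The median was 14 steps, from 1 to 25, against 3 steps in other protein-coding genes. Height goes with region in this list, and among coding peaks alone the medians were 14 steps for the members and 8 for other genes. Of the 39 coding peaks, 39 reached 5 steps (100%, 91.0 to 100), against 83.1% of 5957. The 5 lower peaks were DNMT1 peaks 1 and 4 and UHRF1 peaks 3, 4 and 6, none of them in an exon of the MANE transcript.

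Fold enrichment was at least 2 in 44 of the 51 peaks (86.3%, 73.7 to 94.3), against 40.5% of peaks in other protein-coding genes, with medians of 2.45 and 1.61. It equals the height plus 1 over the local background plus 1, so the background of each peak can be solved. At a given background the fold follows from the height, so it is not separate evidence beside the height. A background of 1.0 stood under 16 of the 51 peaks (31.4%, 19.1 to 45.9), against 1.33% of peaks in other protein-coding genes. These were 8 peaks of DNMT1, 6 of TOP2A, 1 of MCM3 and 1 of MCM4. Of them, 14 shared a single p-value of 0.0190 although their heights ran from 14 to 17 steps, since the deposited p-value followed from the whole-number part of the height and the background. For coding peaks the median fold enrichment was 2.45 in the members and 2.37 in other genes, while the median background was 0.336 and 0.12. An FDR under 0.05 was met by 1 of the 51 peaks, in DNMT1, and by 0.0927% of all peaks. The deposited FDR of the other 50 was 1, although a q-value threshold of 0.05 was stated for the peak calling, so the deposited FDR is not the value by which the peaks were kept.

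**Figure D2:**
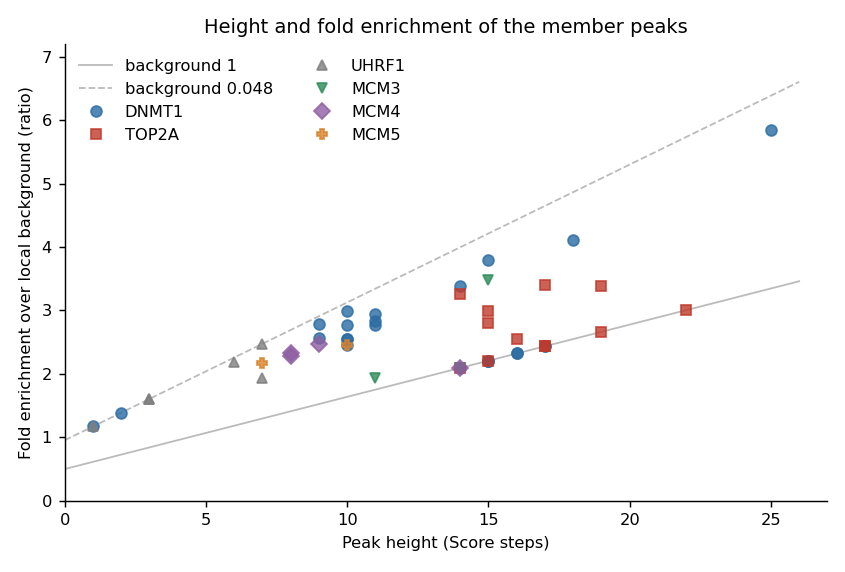
Each point is 1 of the 51 peaks, with its height in Score steps on the x axis and its fold enrichment (ratio) on the y axis, marked by gene; the lines show the enrichment at local backgrounds of 1 and 0.048. The tallest peak, of DNMT1 at 25 steps, has a fold of 5.85, while 16 peaks lie on the line of background 1 and have lower folds at the same height.

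DNMT1, the maintenance methyltransferase (ENSG00000130816), lies on the minus strand of chromosome 19 from 10133342 to 10231286 and has 41 exons in an mRNA of 5274 nt. With 24 peaks it stood at rank 24 of all protein-coding genes by number of peaks, at rank 17 by coding peaks and at rank 25 by its tallest peak. Its exonic peaks came to 3.98 per kb of mRNA and its peaks together, peak 5 at an exon edge included, covered 33.8% of the exonic bases. Their heights ran from 9 to 25 steps, so none of the exonic peaks of DNMT1 was low.

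The tallest DNMT1 peak, peak 6, lay in exon 13 (chromosome 19, 10162629 to 10162737), with its centre at codon 331. It reached 25 steps, a fold enrichment of 5.85, a p-value of 1.09e-08 and an FDR of 0.0296. The next, peak 11 in exon 26, had 18 steps, a fold of 4.11 and a p-value of 5.44e-06. Peaks 8 in exon 18 and 7 in exon 16 followed by enrichment, with folds of 3.80 and 3.38 at 15 and 14 steps. All 4 were centred in coding exons, and none held UGUA.

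DNMT1 peaks were spread over many exons. A peak centre lay in the coding part of 19 of the 41 exons (46.3%), and exon 41 held a further peak in its 3′UTR. From exon 24 to exon 37, 13 of 14 exons held a peak centre, exon 27 being without, while 5 of the 23 exons before and 2 of the 4 after held one. These exon limits were drawn after the positions were seen. Of the 21 exonic centres, 8 lay before and 13 after the midpoint of the mRNA. The 20 exons with a peak had a median length of 145 nt (76 to 356) and the 21 without one of 91 nt (35 to 220), so the exons with a peak were longer by the median although the ranges overlapped. Their median share of G and A was 51.2%, against 62.0%.

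The 3′UTR of DNMT1, 321 nt long, held 1 peak. This was peak 24 (chromosome 19, 10133453 to 10133564) in exon 41, with 9 steps and a fold of 2.56, and its centre lay 162 nt before the end of the mRNA. It held no UGUA. Peak 2 in exon 1, at codon 11, was of the same height, 9 steps, and these were the lowest exonic peaks of the gene.

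Of the 3 DNMT1 peaks outside exons, 2 were low and 1 lay at an exon edge. Peak 1 (10224334 to 10224591) had 2 steps and lay upstream of the MANE transcript, within the annotated body of S1PR2, a sphingosine 1-phosphate receptor gene, so its gene cannot be told from position alone. Peak 4 in intron 8 had 1 step. Peak 5 (10163297 to 10163345), with 10 steps and a fold of 2.99, was centred 5 nt into intron 12 and crossed the exon 12 donor.

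TOP2A, the DNA topoisomerase II of dividing cells, lies on the minus strand of chromosome 17 from 40388525 to 40417896, with 35 exons in an mRNA of 5695 nt. All 12 of its peaks were exonic, 9 in coding sequence and 3 in the 3′UTR, or 2.11 per kb of mRNA. They had a narrow range of heights, 14 to 22 steps with a median of 16.5, against a median of 12.5 for all DNMT1 peaks. The median background under its coding peaks was 1.0, against 0.288 for DNMT1, and the highest fold enrichment of the gene was 3.40.

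The tallest TOP2A peak, peak 1 in exon 2 at codon 27 (40416798 to 40416876), had 22 steps, a fold of 3.01 and a p-value of 0.000594. G and A made up 69.6% of its bases. Peak 3 in exon 8 had 19 steps and a fold of 3.38. Coding peaks lay in 9 of the 35 coding exons (25.7%), namely exons 2, 5, 8, 22, 23, 26, 28, 29 and 35, so no peak was centred between exons 8 and 22.

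The last exon of TOP2A, 1123 nt long, held 4 peaks, the most in 1 exon of any member. Peak 9, in its coding part at codon 1527, had 17 steps and a fold of 3.40. The 3′UTR peaks 10, 11 and 12 had 15, 15 and 19 steps and folds of 2.80, 2.98 and 2.66. Their centres lay 697, 504 and 208 nt before the end of the mRNA, and only the first of them held UGUA.

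**Figure D3:**
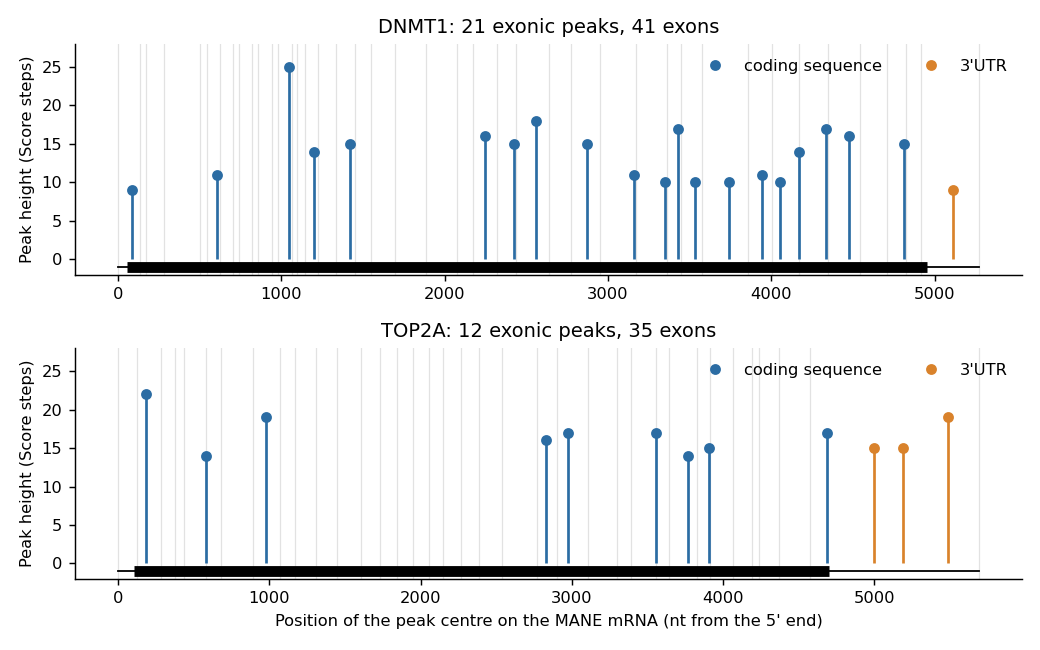
The x axis gives the position of each peak centre on the mRNA (nt from the 5′ end) and the y axis its height in Score steps, for DNMT1 above and TOP2A below; grey lines are exon edges and the thick bar is the coding sequence. The 21 exonic peaks of DNMT1 run from 9 to 25 steps and stand in most exons from 24 to 37, while the 12 of TOP2A run from 14 to 22 steps and include 3 in the 3′UTR.

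UHRF1, which binds hemimethylated DNA and brings DNMT1 to it, lies on the plus strand of chromosome 19 from 4903080 to 4962154. It held fewer and lower peaks than DNMT1, with 2 in coding sequence and 4 centred in introns, and 0.513 exonic peaks per kb. Peak 1 in exon 4 had 7 steps and a fold of 1.94, and peak 2 in exon 11 had 6 steps and a fold of 2.19. The tallest by enrichment, peak 5 (4954471 to 4954826), had 7 steps and a fold of 2.48. It was centred in intron 14, 2 nt before exon 15, and took in 2 splice donors and 1 acceptor, so it spanned exons as well. The other intron peaks, in introns 13 and 15, had 3, 1 and 3 steps at a background of 0.048.

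Among the MCM helicase subunits, MCM3, MCM4 and MCM5 held 9 peaks and MCM2, MCM6 and MCM7 none. MCM3 lies on the minus strand of chromosome 6 from 52264014 to 52284881. Its peak 1 in exon 6 had 15 steps, a fold of 3.48 and a p-value of 0.000176, and its peak 2 in exon 14 had 14 steps and a fold of 2.09. G and A made up 83.3% of peak 2 and 82.7% of the whole of exon 14. The 3′UTR peak of MCM3 had 11 steps and a fold of 1.93, 325 nt before the end of the mRNA. MCM5, on the plus strand of chromosome 22 from 35400134 to 35425431, had a peak of 10 steps and a fold of 2.45 in exon 4 and one of 7 steps and a fold of 2.18 in exon 5. MCM3 thus held the tallest and the most enriched peak of the helicase.

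MCM4 lies on the plus strand of chromosome 8 from 47960185 to 47978160, with 4 coding peaks in exons 4, 5, 9 and 14. Their heights were 8, 8, 9 and 14 steps and their folds 2.33, 2.28, 2.47 and 2.09, so the tallest was the least enriched. A peak of 6 steps was centred 165 nt upstream of the gene, in PRKDC, the gene of a DNA repair kinase. By its centre it was the closest peak to any member without being in it.

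The 4 genes without a peak were PCNA (chromosome 20, 5114953 to 5126626), MCM2 (chromosome 3, 127598410 to 127622436), MCM6 (chromosome 2, 135839626 to 135876443) and MCM7 (chromosome 7, 100092233 to 100101940). Their mRNAs have 1276, 3434, 3753 and 2467 nt, and those of MCM2 and MCM6 are longer than the 3068 nt of MCM3, which held 3 peaks. The closest peaks outside were centred 4882 nt from PCNA, in TMEM230, and 5581 nt from MCM7, in AP4M1 and TAF6, with 2 and 7 steps. Those closest to MCM2 and MCM6 were centred 21351 and 44037 nt away.

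The coding peaks of the members often ran past the 3′ edge of their exon and not past the 5′ edge. Of the 39, 24 (61.5%, 44.6 to 76.6) crossed a splice donor and 0 (0 to 9.03) a splice acceptor. Coding peaks of other protein-coding genes crossed a donor in 32.3% (31.2 to 33.6) of cases and an acceptor in 7.0% (6.37 to 7.68), so the same side led there too. The peak lengths were alike, with medians of 80 and 81 nt. Exon lengths, and the share of peaks in last exons, which have no donor, were not compared. The difference between members and other genes may therefore reflect the exons that hold the peaks. DNMT1 crossed a donor in 14 of 20 coding peaks (70.0%, 45.7 to 88.1) and TOP2A in 4 of 9 (44.4%, 13.7 to 78.8). Without DNMT1 the members crossed one in 10 of 19 (52.6%, 28.9 to 75.6), an interval that overlaps that of other genes. As a share of the peak, the bases past the donor ranged from 3 of the 131 in DNMT1 peak 18 to 29 of the 60 in TOP2A peak 2. By number the most were 41 of the 113 in DNMT1 peak 21, and DNMT1 peak 6 had 38 of its 109. Whether reads across a splice junction set these borders was not tested, and the aligner was not given in the sources used here.

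**Figure D4:**
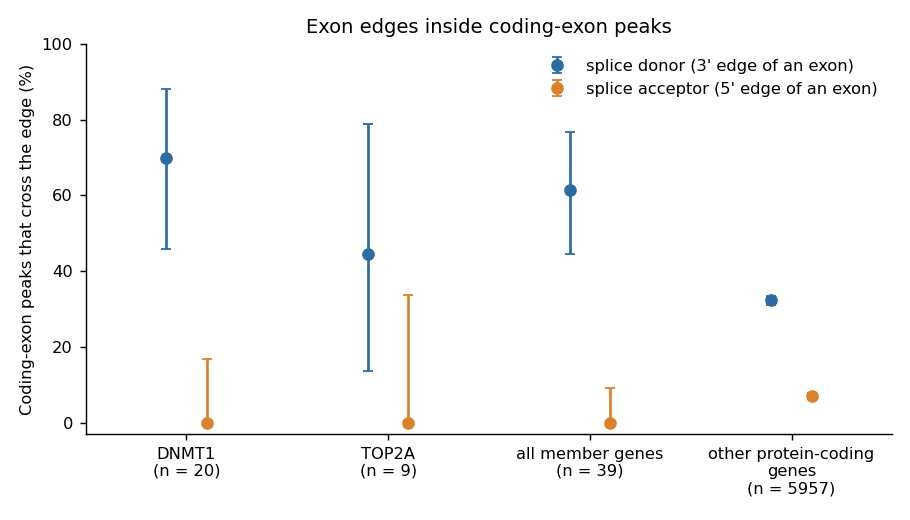
Points give the share (%) of peaks centred in coding exons that cross a splice donor or a splice acceptor, for DNMT1, TOP2A, all members and other protein-coding genes, with exact 95% binomial intervals as bars. Donors are crossed by 61.5% of the 39 member peaks and 32.3% of the 5957 others, and acceptors by 0% and 7.0%.

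UGUA, the motif of NUDT21, was searched on the strand of the gene over the whole of each peak. It was found in 14 of the 51 peaks (27.5%, 15.9 to 41.7), against 44.5% of peaks in other protein-coding genes, whose median length of 145 nt exceeds the 84 nt of the members. Among coding peaks the shares were 20.5% (9.30 to 36.5) and 20.8% (19.8 to 21.9), a difference within the interval of the members. UGUA on the opposite strand was found in 25.5% of the 51 peaks, against 27.5% on the strand of the gene. DNMT1 had UGUA in 9 of 24 peaks, UHRF1 in 2 of 6, MCM4 in 2 of 4 and TOP2A in 1 of 12, while MCM3 and MCM5 had none.

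In the exons of the 6 genes with a peak, UGUA was counted under the peaks and beside them. The density was 1.97 per kb (0.792 to 4.06, exact Poisson interval) in 3555 exonic bases within peaks and 2.92 per kb (2.25 to 3.73) in 21900 exonic bases outside. These rest on 7 and 64 sites, and the intervals overlap. In TOP2A, 1 site lay within peaks and 20 outside, or 1.19 and 4.12 per kb. In DNMT1 the values were 2.25 and 2.58 per kb. The share of G and A was 54.3% within and 53.0% outside, and TOP2A was richer in A within its peaks, at 39.3% against 33.0%.

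Of the 16 UGUA in member peaks, 7 lay in exons, 8 in introns and 1 across an exon edge. Of the 9 in DNMT1, 5 lay within 10 nt of a splice donor. In peak 5 the U was the last base of exon 12 and the GUA the start of the intron, so the motif there overlapped the donor itself. In peak 21 the UGUA ended 2 nt before the donor of exon 36. Those of peaks 15 and 22 lay in the introns, 10 and 9 nt past the donors of exons 31 and 37, and that of peak 10 lay 9 nt before the donor of exon 25. None of the 7 in the other genes lay that close, and no test was made of 16 sites.

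By the share of coding exons with a peak, DNMT1 stood at rank 10 of the 2383 protein-coding genes with at least 20 coding exons, of which 656 had any. The closest genes were SMC4 (11 of 23 exons, 47.8%) and PRRC2C (16 of 34, 47.1%) above, and SMC2 and EIF5B (each 11 of 24, 45.8%) below. SMC4 and SMC2 code for the core pair of condensin, and EIF5B for a translation initiation factor. Their tallest peaks reached 16, 20, 16 and 17 steps, against 25 in DNMT1. TOP2A stood at rank 61 by the same measure.

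The rest of the replication machinery was read from a list of 73 further genes. A peak was found in 57 of them (78.1%, 66.9 to 86.9), against 33.6% of all protein-coding genes, with 262 peaks in all. A peak of 5 or more steps was found in 35 (47.9%, 36.1 to 60.0), against 14.5%, and an exonic peak in 42 (57.5%, 45.4 to 69.0), against 20%. The 16 genes without a peak included CDC6 and CDT1, which load the helicase, and FEN1, the flap nuclease. Their mRNAs had a median of 1872 nt, against 3734 nt for the 57 with a peak, and over all protein-coding genes these medians were 2436 and 3920 nt. The list was chosen with earlier results of these data known, so its counts are given without a test.

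By complex, all 6 subunits of the origin recognition complex held a peak, but only 3 in an exon. A peak was found in 3 of the 4 GINS subunits, 4 of the 5 of the clamp loader RFC, 2 of the 3 of the single-strand binding complex RPA, 2 of the 4 of polymerase alpha-primase, and 3 of the 4 of each of polymerases delta and epsilon. In an exon these counts were 1, 2, 1, 1, 2 and 2 in the same order. Over all protein-coding genes, 33.6% held any peak and 20% an exonic one. Many of these peaks were low. Among the subunits of these complexes, a peak of 5 or more steps was found only in ORC1, ORC6, GINS1, RFC1, RFC3, RPA1, POLD1, POLE and POLE3. Such a peak was held by 14.5% of all protein-coding genes. TOP1 and TOP2B, the topoisomerases of the list, held 14 peaks between them. Of the DNMT3 and TET genes of the list, DNMT3A, DNMT3B and TET2 held 6 peaks and TET1 and TET3 none. The tallest peaks of DNMT3A, DNMT3B and TET2 had 4, 1 and 1 steps.

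The tallest peaks of the list were in MKI67, the proliferation marker Ki-67, with 23 steps and a fold of 4.67, and in TOP1, with 22 steps and a fold of 5.25. CHAF1A, a subunit of the chromatin assembly factor, and RNASEH2B, a subunit of RNase H2, each reached 19 steps, with folds of 3.06 and 2.66. USP1, which removes ubiquitin from PCNA, reached 17 steps with a fold of 4.29. TIMELESS, which protects the replication fork, reached 16 steps with a fold of 2.56. The most peaks were held by MKI67 with 40, then HELLS with 16, RIF1 with 14 and CLSPN with 12. Of those in HELLS, 7 lay outside the MANE transcript and 4 in introns. RIF1 had 2 in introns, CLSPN had 2 outside, and all peaks of MKI67 were exonic. DNMT1 at 25 steps was thus taller than any gene of the list, and only MKI67 held more peaks.

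**Figure D5:**
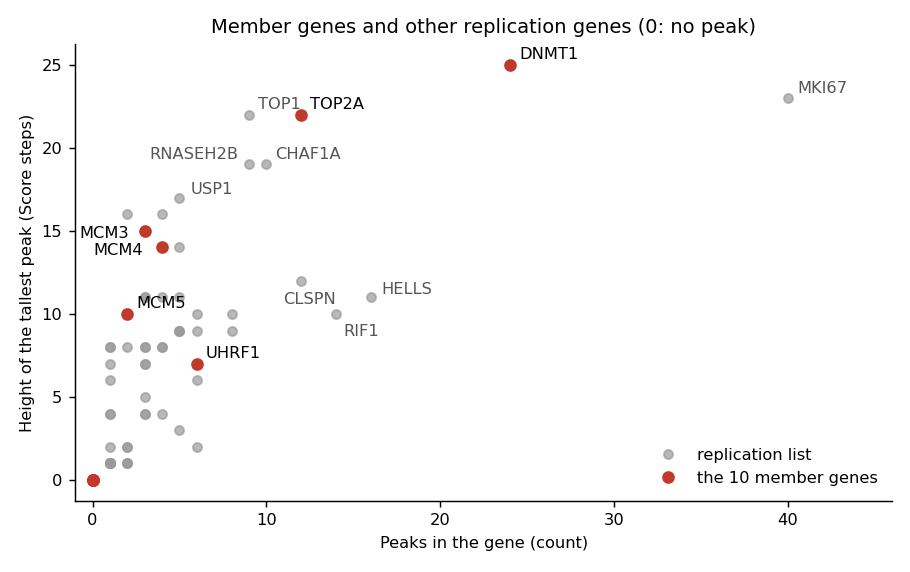
Each point is a gene, with its number of peaks (count) on the x axis and the height of its tallest peak in Score steps on the y axis; red points are the 10 members and grey points the 73 other replication genes, and genes without a peak lie at 0. DNMT1 has the tallest peak at 25 steps, and MKI67 the most peaks at 40.

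The cell type was checked by the peaks in marker genes. Of 10 T cell markers, 4 held a peak (CD3E, CD247, ZAP70 and PTPRC), and none of 3 B cell and 3 myeloid markers did. The share of all protein-coding genes was 33.6%, so these counts do not tell the cell type, and the ZAP70 peak had 1 step. A peak needs both transcripts and binding, so a marker without a peak says nothing of the cells.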

How the data were processed

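NUDT21 eCLIP peaks of 1 J-Gamma1 library were analysed, and no file of the input was used here. The authors trimmed reads with fastp, removed duplicates by molecular identifier and ribosomal RNA reads, mapped the rest to hg38, and called peaks with MACS2 with windows of 1000 and 10000 nt and a stated q-value threshold of 0.05. The aligner was not given in the sources used here, nor whether the input was the control. The deposited values were the fold enrichment (a ratio), p-value, FDR (a q-value) and Score (a signal, the peak height) of each peak. Read depth is unknown.

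Each midpoint was placed on the MANE Select transcript in GENCODE release 44. Motif counts were tested on simulated sequences. Region labels were checked at random positions in the real transcripts of the members. The UTR limits in that check were the same as in the labelling, so it could not find an error in them. Python 3.11.15, pandas 2.3.3, scipy 1.17.1 and pysam 0.24.0 were used. Members and lists were chosen with earlier results of these data known. The rule named all members, the 6 tallest and 4 most numerous genes of the list (1 gene is not reported here), the 2 genes above and 2 below DNMT1 by coding exons with a peak, and genes overlapping a member peak. CDC6, CDT1, FEN1, the subunits of complexes and the closest genes outside were named after their values were seen. Limits on FDR, fold and height, transcript precedence, peak windows and members left out were the alternatives.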

Additional observations from a re-analysis of the deposited data

How the results depend on the processing

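Of 35 alternative values, 25 stayed within 1.5 times the count or within the interval of the share, and 10 moved. Among the 25 was the UGUA share on the opposite strand, 25.5%. That value compares the strands, and its closeness to the main share is no check of that share. The 51 peaks fell to 1 at an FDR under 0.05, which left 1 gene with a peak in place of 6 and a coding share of 100%, and to 27 without DNMT1, an alternative chosen after seeing the data. The coding share of 76.5% was 29.4% with 3′UTRs of any transcript in precedence. The share of 5 or more steps was 90.2%, and 78.4% of the peaks reached 9 steps. Among peaks with a fold enrichment of at least 2 the share of 5 or more steps was 100%. At the lowest member background of 0.048 a fold of 2 needs at least 5 steps, so this value was fixed in advance and is no check. The UGUA share of 27.5% was 52.9% after adding 50 nt on each side. The 57 genes of the replication list with a peak were 32 at a fold enrichment of at least 2 and 35 at 5 or more steps. No paired analysis was possible because the files used hold 1 library. With 1 library, no value has a replicate, and the absence of a peak was not told from low expression.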
